A study of Saccharomyces cerevisiae with 18 samples.

Results

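Newly synthesized RNA was examined for 10 genes of ergosterol synthesis in Saccharomyces cerevisiae (YGR175C ERG1, YMR202W ERG2, YLR056W ERG3, YMR015C ERG5, YML008C ERG6, YHR007C ERG11, YNL280C ERG24, YGR060W ERG25, YGL001C ERG26 and YLR100W ERG27). They were chosen by name among the 6692 genes counted, with earlier results of these data known. All 10 passed the filter on low counts, and they are part of the 5567 genes tested. The RNA was labeled with 4-thiouracil for 6 min after 30 min with 0.5 mM of the auxin 3-IAA or with DMSO, so that it reports on transcription rather than on the standing pool of mRNA. There were 18 libraries in 6 groups, with 3 biological replicates of each strain and treatment.

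The strains carried an auxin-inducible degron (IAA7), through which 3-IAA triggers degradation of the tagged protein. Spt20-AID carried SPT20-3xHA-IAA7, Med16/Spt20-AID carried MED16-3V5-IAA7 with SPT20-3xHA-IAA7, and Med16/Taf13-AID carried MED16-3V5-IAA7 with TAF13-3xHA-IAA7. Spt20 holds the coactivator SAGA together, Taf13 is a subunit of the general factor TFIID, and Med16 is a subunit of the Mediator tail. All 3 strains, DMSO groups included, were W303 cells with the alleles ade2-1, can1-100, his3-11,15, trp1-1 and ura3-1 and a mutant allele of leu2, and expressed the auxin receptor OsTIR1 from the GPD1 promoter at leu2. Spt20-AID and Med16/Spt20-AID are listed as MATa. Each strain is a single named line, grown in YPD, and no strain without a degron was among the libraries analysed, so what the auxin does by itself and what depletion does cannot be told apart. The file names of Med16/Taf13-AID carry another sequencing run than those of the other 2 strains, so strain and run cannot be told apart for it.

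Ergosterol is the main sterol of fungal membranes, in the place that cholesterol holds in animals. Its synthesis runs from acetyl-CoA through mevalonate to farnesyl pyrophosphate and squalene. Squalene is then oxidized and cyclized to lanosterol, which is trimmed of methyl groups, methylated on its side chain and desaturated. Oxygen and heme are needed at several of these steps, and the activators Upc2 and Ecm22 bind a sterol response element in the promoters of many of the genes. The 10 genes studied act between squalene and the last steps. ERG1 encodes squalene epoxidase, and ERG11 the cytochrome P450 that demethylates lanosterol and is the target of azole drugs. ERG24 encodes the sterol reductase that acts on the product of Erg11. ERG25, ERG26 and ERG27 encode the oxidase, dehydrogenase and ketoreductase that together remove the remaining methyl groups from the ring. ERG6 encodes the methyltransferase of the side chain, ERG2 a sterol isomerase, ERG3 the desaturase of the ring and ERG5 the cytochrome P450 that desaturates the side chain.

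On the spike-in scale described below, ERG3 gave the largest fall after Spt20 depletion, ERG5 the next largest and ERG2 no called fall. For this reason the upstream stretches of these 3 genes are shown. Each is the 200 bases from 300 to 101 bases before the start codon, read 5′ to 3′ on the strand of the gene from the RefSeq R64 genome, which comes from a strain other than W303. Capitals mark the core of the sterol response element (TCGTATA) or a TATA element.
ERG3, chrXII:253561-253760, plus strand: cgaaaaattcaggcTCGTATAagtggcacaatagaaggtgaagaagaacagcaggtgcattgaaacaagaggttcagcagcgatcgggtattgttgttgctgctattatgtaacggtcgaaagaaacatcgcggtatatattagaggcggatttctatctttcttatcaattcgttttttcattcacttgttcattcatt
ERG2, chrXIII:667237-667436, plus strand: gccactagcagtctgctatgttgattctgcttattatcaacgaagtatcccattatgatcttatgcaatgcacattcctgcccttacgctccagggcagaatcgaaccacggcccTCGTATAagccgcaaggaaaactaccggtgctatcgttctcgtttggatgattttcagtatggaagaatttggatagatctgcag
ERG5, chrXIII:302586-302785, minus strand: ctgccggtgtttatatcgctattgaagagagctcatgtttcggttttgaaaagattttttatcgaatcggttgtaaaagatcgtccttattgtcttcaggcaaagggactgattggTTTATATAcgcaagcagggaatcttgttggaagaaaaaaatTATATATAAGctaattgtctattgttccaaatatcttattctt

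The core TCGTATA begins 286 bases before the start codon of ERG3 and 185 bases before that of ERG2. Searched on both strands in the 300 bases before the start codon, it was in 2 of the 10 genes and in 277 of 6001 genes, or 4.62%. The TATA element (TATAAAAA, TATAAAAG, TATAAATA, TATAAATG, TATATAAA, TATATAAG, TATATATA or TATATATG, either strand, overlapping matches allowed) was in 5 of the 10 genes (ERG1, ERG2, ERG5, ERG6 and ERG11) against 41.0% of the 6001. The match of ERG2, TATATAAG, begins 92 bases before its start codon and so lies outside the stretch printed. The Hap1 site was in none of the 10 and in 0.133% of all. On the spike-in scale described below, 7 of the 10 genes were called lower in both strains with tagged Spt20. The core was in 1 of these 7 (ERG3) and in 1 of the 3 not called (ERG2).

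Normalized counts are reads on the sense strand divided by the study's spike-in size factor for the library, recovered from its table of mean normalized counts. The spike-in was S. pombe cells mixed in by optical density, so a normalized count tracks RNA per unit of optical density. In these bulk samples, less new RNA per cell cannot be told apart from fewer cells per unit of optical density or from an error in the mixing. Libraries held 874975 to 6189719 reads on the sense strand of genes, with the fewest in Med16/Taf13-AID with 3-IAA (874975 to 1029147). The 10 genes had between 55 and 4008 reads in a library. Transcripts of the tagged subunits do not measure the protein: SPT20 RNA was higher with 3-IAA than with DMSO in Spt20-AID (log2 fold change 0.73 ± 0.14 SE, edgeR adjusted p = 6.87e-06) while the degron acts on Spt20 protein. Of all genes, 54.0% were called higher there too, around a median of 0.38. Of the a-cell markers, STE2 had 1089 to 4054 normalized counts, MFA1 70.4 to 326.7 and MFA2 311.7 to 1256, and BAR1, which the genotypes do not list as altered, had no read in 17 of 18 libraries. The alpha-cell markers summed to 48.5 to 314.4, mostly SAG1 and STE3, against 1471 to 5549 for the a-cell markers.

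**Figure D1:**
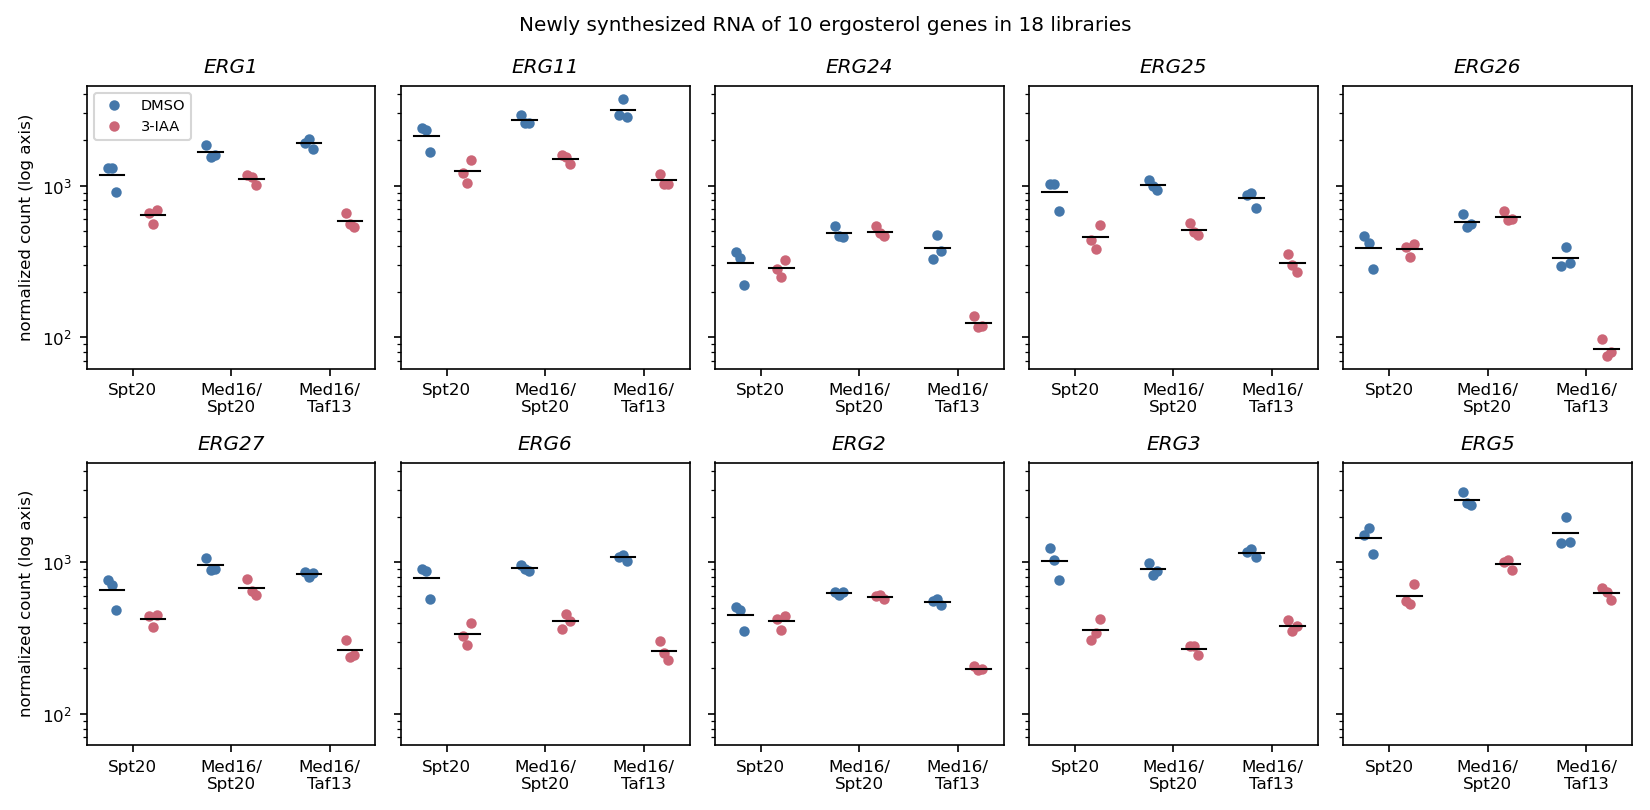
Normalized counts (log axis) of the 10 genes in the 18 libraries, with DMSO in blue, 3-IAA in red and a bar at the mean of 3 replicates. ERG3 and ERG5 drop in all 3 strains, whereas ERG24, ERG26 and ERG2 were called lower on this scale in Med16/Taf13-AID only (log2 fold changes -1.65, -1.99 and -1.47). In that strain 98.2% of all genes were called lower, around a median of -1.68.

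The first comparison was of 3-IAA with DMSO in Spt20-AID, where the SAGA subunit Spt20 carries the degron. Transcription of 7 of the 10 genes fell, none rose and 3 were not called, with a median log2 fold change of -0.83 over the 10. Over all genes tested with edgeR's quasi-likelihood test (adjusted p under 0.05), 8.08% were called lower and 54.0% higher, and the all-gene median was 0.38. ERG3, ERG5 and ERG6 had the largest falls. All 10 genes lay below the all-gene median.

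ERG3 gave 1234, 1042 and 761.2 normalized counts with DMSO and 306.9, 339.8 and 422.9 with 3-IAA. The groups were far apart. Of all genes, 6.75% had every 3-IAA library below every DMSO library, and 49.2% had the reverse. The RNA was at 35.2% of its DMSO level (log2 fold change -1.51 ± 0.14 SE, edgeR adjusted p = 4.51e-23). Only 24 of the 5567 genes had a lower fold change. ERG5 gave 1523, 1687 and 1135 with DMSO against 555.1, 532.1 and 716 with 3-IAA. The groups did not overlap, and the fold change was -1.27 ± 0.14 on the log2 scale (edgeR adjusted p = 2.14e-16). The methyltransferase gene ERG6 gave 904.2, 869.8 and 573.3 with DMSO against 325.7, 284.4 and 397.3 with 3-IAA. It too was well separated, at 42.9% of the DMSO level (log2 fold change -1.22 ± 0.14, edgeR adjusted p = 2.43e-15).

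The oxidase gene ERG25 fell to 50.2% (log2 fold change -0.99 ± 0.14), from 1020, 1028 and 685.3 to 436.3, 382.5 and 553.6. Its partner in the same demethylation, the ketoreductase gene ERG27, fell less, by 0.63 ± 0.14 on the log2 scale. It went from 768.5, 710.4 and 483 to 442.3, 373.9 and 451.1, where the lowest DMSO library was only just above the highest 3-IAA library. The third enzyme of that set behaved otherwise. ERG26 gave 466.6, 418.3 and 283.5 with DMSO and 394.9, 340.5 and 410.5 with 3-IAA, groups that overlapped (log2 fold change -0.03, 95% interval -0.31 to 0.26, edgeR adjusted p = 0.88).

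At the head of the branch, squalene epoxidase (ERG1) fell by 0.88 ± 0.14 on the log2 scale, from 1319, 1307 and 908.7 to 665.7, 562.1 and 693.9. ERG11 fell by 0.78 ± 0.14, from 2416, 2328 and 1671 to 1212, 1050 and 1473. Neither gene's groups overlapped, though the lowest DMSO library of ERG11 was close to the highest 3-IAA library. The reductase gene ERG24, which follows ERG11 in the pathway, was at 92.9% of its DMSO level (log2 fold change -0.11, 95% interval -0.39 to 0.18). The isomerase gene ERG2 was at 91.3% (log2 fold change -0.13, interval -0.41 to 0.15). Both overlapped between treatments. The intervals of ERG2 and of ERG27 (-0.91 to -0.35) overlapped as well, so the called and uncalled genes were not sharply parted.

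The libraries numbered 3 gave smaller drops on this scale. Of the 3-IAA to DMSO ratios within a replicate number (pseudocount 1), the median of the 10 genes was -0.99, -1.18 and -0.24 on the log2 scale in numbers 1, 2 and 3. The median of all 5567 genes moved with it, at 0.23, 0.11 and 0.76. Set against the all-gene median of the same number, the 10 genes were at -1.22, -1.29 and -1.004, and all 10 were below it in each. DMSO replicate 3 was the lowest of its group for all 10 genes. Without that library or any other single library, 7 genes were still called lower.

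**Figure D2:**
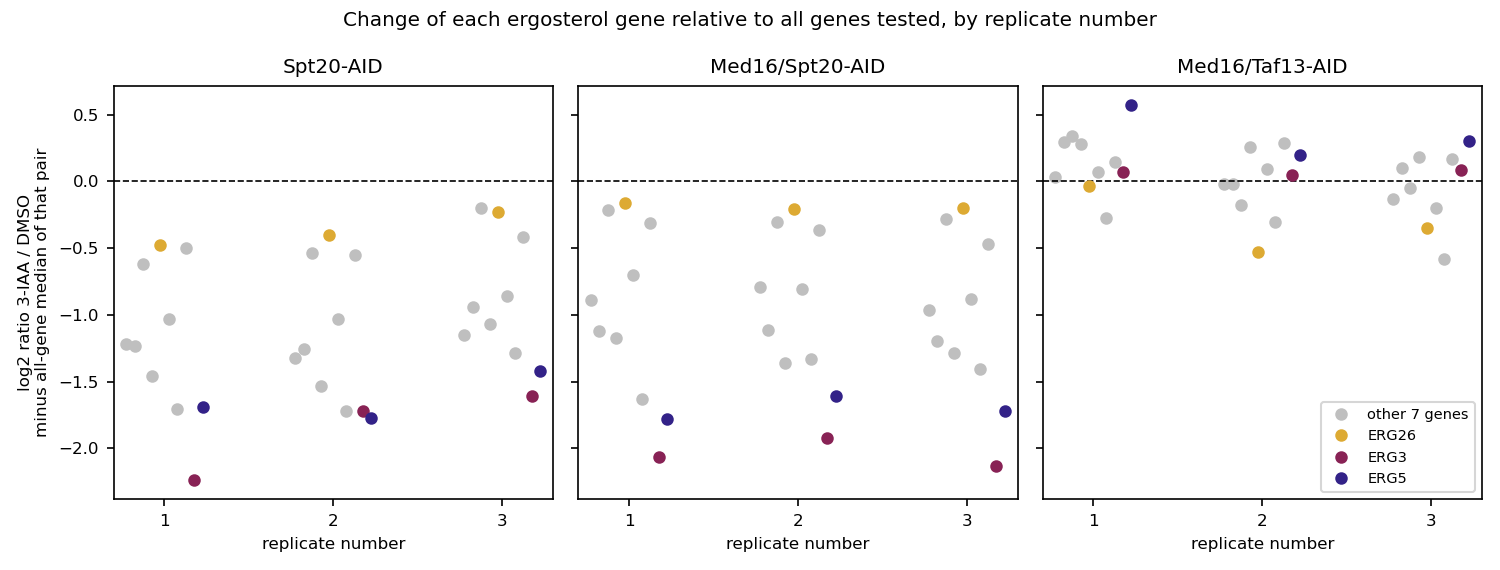
Log2 ratio of 3-IAA to DMSO for each of the 10 genes minus the all-gene median of the same replicate number (y axis), by replicate number (x axis; the numbers have no order) and strain. In both strains with tagged Spt20 every gene lies below 0 in every replicate, with ERG3 and ERG5 among the lowest, while in Med16/Taf13-AID the genes scatter around 0.

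With TMM, a scaling on the genes themselves that sets the bulk of genes to no change, all 10 genes were called lower in Spt20-AID (25.1% of all genes lower, 17.1% higher). ERG24, ERG26 and ERG2 then fell by 0.46, 0.37 and 0.49 on the log2 scale (edgeR adjusted p = 0.000119, 0.000774 and 3.2e-06). On the spike-in scale those 3 were not called, while the all-gene median rose to 0.38. The reads of the 10 genes made up 0.336% to 0.395% of all sense reads in the DMSO libraries and 0.188% to 0.190% in the 3-IAA libraries.

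The second comparison asked what happens when Med16 is depleted along with Spt20. In Med16/Spt20-AID the same 7 genes fell, none rose and the same 3 were not called, with a median log2 fold change of -0.72. Of all genes, 10.3% were called lower and 46.2% higher by edgeR, and the all-gene median was 0.31. All 10 genes were again below the all-gene median. ERG3, ERG5 and ERG6 again had the largest falls.

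ERG3 went from 994.3, 825.1 and 870.1 normalized counts with DMSO to 278.8, 278.7 and 244.2 with 3-IAA, groups far apart. That is 29.8% of the DMSO level (log2 fold change -1.74 ± 0.15 SE, edgeR adjusted p = 1.28e-29). ERG5 went from 2917, 2468 and 2372 to 998.2, 1038 and 890.7, also far apart, at 37.8% (log2 fold change -1.41 ± 0.14, edgeR adjusted p = 1.13e-20). ERG6 went from 956.9, 895.6 and 880.6 to 363.1, 456.1 and 410.7, or 45.0% (log2 fold change -1.15 ± 0.14). ERG25 fell by 0.97, ERG11 by 0.85, ERG1 by 0.58 and ERG27 by 0.49 on the log2 scale, and none of the 4 overlapped between treatments. All 3-IAA libraries lay below all DMSO libraries in 12.1% of the tested genes and above them in 54.2%.

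ERG2 was the one gene that parted the treatments without being called. Its libraries were 636.8, 610.9 and 637.3 with DMSO against 602.5, 608.2 and 569.8 with 3-IAA, which did not overlap. The fold change was small (log2 -0.08, 95% interval -0.36 to 0.19, edgeR adjusted p = 0.607). ERG24 (log2 fold change 0.03, interval -0.25 to 0.31) and ERG26 (0.11, interval -0.17 to 0.39) overlapped between treatments. With TMM, 9 of the 10 genes were called lower, against 21.6% lower and 11.9% higher of all genes. ERG26 was the exception (log2 fold change -0.18, edgeR adjusted p = 0.0924), and ERG24 turned to -0.26 (adjusted p = 0.018).

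Whether the response changed once Med16 was depleted too was tested as the difference between the 2 responses. No gene of the 10 was called in either direction, against 0.611% of all genes higher and 2.64% lower. The differences ran from -0.24 for ERG3 (95% interval -0.64 to 0.16) to 0.29 for ERG1 (-0.10 to 0.68) on the log2 scale. These intervals leave room for changes of that size, so they do not show that the responses were alike. With TMM, ERG1 was called higher (0.36, edgeR adjusted p = 0.0168), which means a smaller fall in Med16/Spt20-AID, and the other 9 were not called (8.19% of all genes higher, 7.24% lower).

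**Figure D3:**
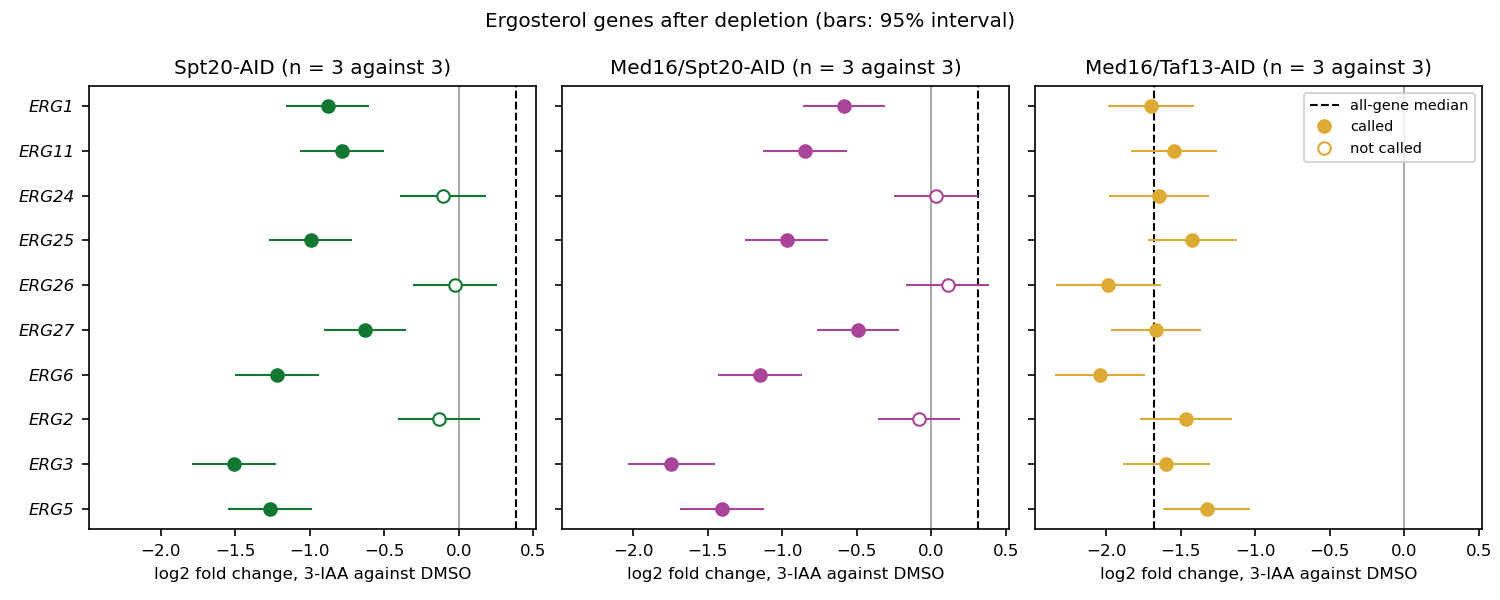
Log2 fold change (3-IAA against DMSO, 95% interval) of the 10 genes in each strain, in pathway order from top to bottom, with filled points for called genes and a dashed line at the all-gene median (0.38, 0.31 and -1.68). In the 2 strains with tagged Spt20 the genes spread out to the left of the line, and in Med16/Taf13-AID they sit on both sides of it.

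In Med16/Taf13-AID, where Taf13 was depleted together with Med16, all 10 genes fell, with a median log2 fold change of -1.62. So did nearly every gene, since 98.2% of all genes were called lower and 0.0719% higher, around a median of -1.68. The 10 genes thus changed with the bulk of the genome. The largest fall was that of ERG6, from 1088, 1119 and 1020 normalized counts to 302.2, 253.7 and 227, or 24.3% of the DMSO level (log2 fold change -2.04 ± 0.15 SE). The smallest was that of ERG5, from 1342, 1994 and 1362 to 673.3, 638.6 and 561, or 39.9% (log2 fold change -1.33 ± 0.15).

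ERG26, which was not called on the spike-in scale in the strains with tagged Spt20, here fell from 295.4, 394.9 and 309.4 to 96.8, 75.7 and 80.6 (log2 fold change -1.99 ± 0.18). ERG3, the leader there, fell from 1172, 1222 and 1077 to 413.7, 353.4 and 380.8, which is close to the all-gene median (log2 fold change -1.60 ± 0.15). No gene of the 10 overlapped between treatments, and in 97.6% of all genes every 3-IAA library was below every DMSO library. With TMM only ERG6 was called lower (-0.39, edgeR adjusted p = 0.00577) and only ERG5 higher (0.34, adjusted p = 0.00534) among the 10, against 29.5% of all genes called either way. The 10 genes held 0.311% to 0.316% of sense reads with DMSO and 0.284% to 0.321% with 3-IAA, ranges that overlapped.

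The difference between this response and that of Med16/Spt20-AID was tested next. It shares the Med16/Spt20-AID libraries with the comparison above, and the strains come from different runs. On the spike-in scale 8 of the 10 genes fell further with Taf13, against 93.9% of all genes lower, 0.449% higher and a median of -1.99. ERG3 and ERG5 were the 2 that were not called (differences 0.15, 95% interval -0.26 to 0.55, and 0.08, interval -0.32 to 0.48). ERG26 had the largest difference at -2.09 ± 0.23, followed by ERG24 at -1.68 and ERG2 at -1.38. ERG25 was a weak call at -0.45 (edgeR adjusted p = 0.0308), which was lost with DESeq2 (adjusted p = 0.0553).

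With TMM 8 of the 10 genes were called higher and none lower, and 7 of the 8 genes called on the spike-in scale turned in sign. ERG3 (2.10), ERG5 (2.04), ERG25 (1.50), ERG11 (1.26), ERG6 (1.06), ERG1 (0.83), ERG27 (0.77) and ERG2 (0.57) were the 8, against 34.2% of all genes called either way. This means that, relative to other genes, they were cut less with Taf13 than with Spt20. ERG24 (0.27) and ERG26 (-0.14) were not called.

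The levels before auxin also differed between the strains. DMSO libraries of Med16/Spt20-AID had more normalized counts than those of Spt20-AID for nearly all genes, with 94.3% called higher, 0.341% lower and a median log2 difference of 1.01. Of the 10 genes, 7 were called higher and none lower, and all 10 were below that median. ERG5 had the largest gain (0.84 ± 0.14), from a mean of 1448 to 2586 normalized counts. ERG3 had none (-0.18, 95% interval -0.45 to 0.10), and ERG6 (0.22) and ERG25 (0.14) were not called either. With TMM the direction turned, with 9 of the 10 lower and none higher (27.3% of all genes lower, 26.2% higher). ERG5 alone was not called then (-0.15), and ERG3 was lowest at -1.16 (edgeR adjusted p = 1.7e-12). The ERG genes thus made up less of the new RNA in the double degron strain before 3-IAA was added.

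Divided by gene length, the levels can be set in order within a group. ERG11 had the highest mean in each of the 6 groups. It had 1342 ± 256 normalized counts per kb (SD, n = 3) in Spt20-AID with DMSO and 682 ± 64.2 in Med16/Taf13-AID with 3-IAA. Its libraries were clear of those of the next gene in Med16/Taf13-AID, with either treatment, and overlapped with them in the other groups. ERG24 was lowest in 4 groups, at 233 ± 57.8 in Spt20-AID with DMSO, where it overlapped with ERG26 (371 ± 90.3). In that group only the step from ERG27 (626 ± 145) to ERG26 parted neighbours without overlap. ERG3 ranked 3 of 10 with DMSO in Spt20-AID (922 ± 217 per kb) and 8 with 3-IAA (325 ± 54.4). In Med16/Spt20-AID it went from rank 7 (816 ± 79.8) to last (243 ± 18.2, without overlap with ERG6 at 356 ± 40.4). In Med16/Taf13-AID it ranked 3 with DMSO (1053 ± 67.2) and 4 with 3-IAA (348 ± 27.5).

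**Figure D4:**
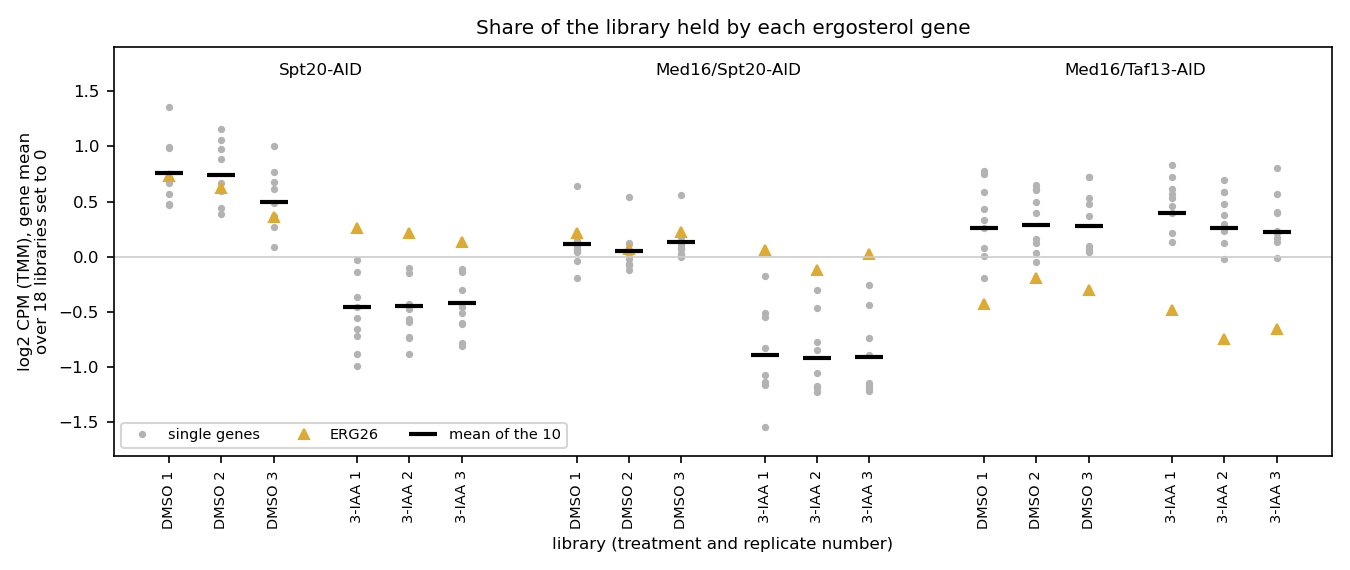
TMM-scaled log2 CPM of each of the 10 genes in each library (y axis, mean over the 18 libraries set to 0), with a black bar for the mean of the 10 and a triangle for ERG26. The mean lies between 0.50 and 0.76 in Spt20-AID with DMSO and between -0.45 and -0.42 with 3-IAA, and ERG26 stays above it in the 3-IAA libraries of both strains with tagged Spt20.

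Across the 18 libraries the genes moved together on the TMM log2 CPM scale, with ERG26 apart. As a description, the Pearson correlation of a gene with the mean of the other 9 was between 0.84 (ERG24) and 0.98 (ERG25) for 9 genes and -0.01 for ERG26. The libraries share strain and treatment, so these are not 18 independent points. On the spike-in scale ERG26 correlated at 0.68 and ERG3 at 0.65. Among 5138 other genes (mean sense reads of 50 or more), the profiles most like the mean of the 10 were those of GAS1 (a cell wall glucan transferase), GNP1 (an amino acid permease), TOS1 (a cell wall protein), GLR1 (glutathione reductase) and RNR1 (a subunit of ribonucleotide reductase), each at 0.98. On the spike-in scale RNR1 was at 0.84. Of the sterol genes outside the 10, the ranks ran from 20 for IDI1 (0.96) and 39 for HMG1 (0.95) to 5012 for ECM22 (-0.74) and 5101 for HMG2 (-0.81).

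The rest of the pathway was followed with 4 lists of 30 genes. Of 9 genes of the mevalonate branch, which makes the precursors, 2 fell and 2 rose in Spt20-AID and the median was -0.04, against 8.08% lower and 54.0% higher of all genes. With TMM 7 of the 9 were called lower and 1 higher, in this strain as in Med16/Spt20-AID. Of all genes, TMM called 25.1% lower and 17.1% higher in Spt20-AID, and 21.6% and 11.9% in Med16/Spt20-AID. Isopentenyl diphosphate isomerase (IDI1, -0.56 ± 0.14) and HMG1 (-0.40 ± 0.14) fell. Mevalonate kinase (ERG12, 0.52) and HMG2 (0.70 ± 0.14) rose, though ERG12 was not called with TMM (0.15). HMG1 and HMG2 encode the 2 HMG-CoA reductases, and reads that map to both are not in the counts. In Med16/Spt20-AID, HMG1 (-0.69), IDI1 (-0.60) and HMG-CoA synthase ERG13 (-0.40) fell and HMG2 rose (0.50), with a list median of -0.09, against 10.3% of all genes lower and 46.2% higher.

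Of 8 other genes of the sterol branch, 4 fell in each of the 2 strains with tagged Spt20, and they were the same 4 (8.08% and 10.3% of all genes were lower). With TMM all 8 were called lower in Spt20-AID and 6 of the 8 in Med16/Spt20-AID (25.1% and 21.6% of all genes), with none higher. ERG28, the scaffold that holds the Erg25, Erg26 and Erg27 enzymes, fell by 1.53 ± 0.19 on the log2 scale in Spt20-AID and by 1.42 ± 0.17 in Med16/Spt20-AID. Its normalized counts in Spt20-AID were 159.7, 136.9 and 93.2 with DMSO against 42.9, 41.4 and 50.3 with 3-IAA, far apart but on few reads. CYB5, the cytochrome that passes electrons to several of the oxidases, fell by 1.01 and 0.80. DAP1, a heme-binding partner of the P450 enzymes, fell by 0.54 and 1.09, and ERG4, the last reductase, by 0.42 and 0.53. The P450 reductase gene NCP1 was called higher in Med16/Spt20-AID only (0.33, edgeR adjusted p = 0.0393), and not with the replicate number as a block (adjusted p = 0.0596) or with TMM (0.03). The list medians were -0.25 and -0.35.

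**Figure D5:**
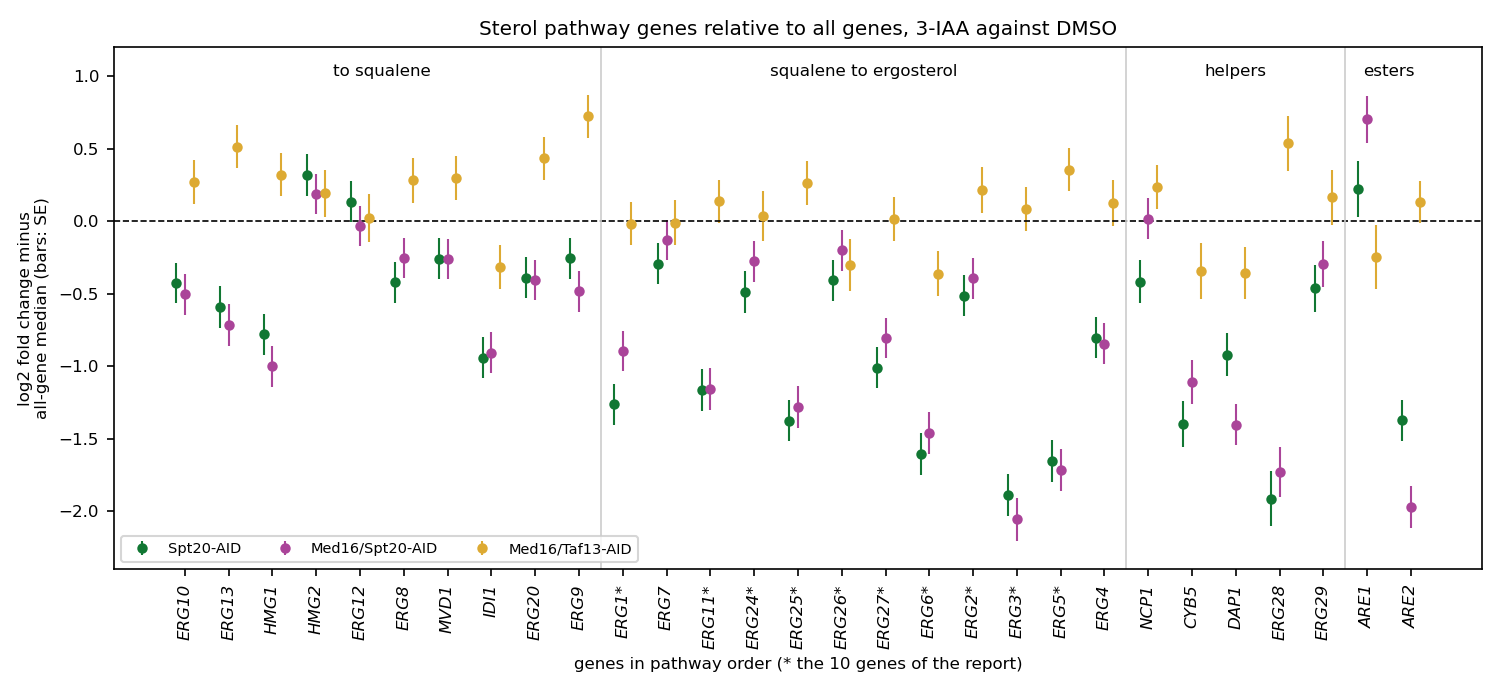
Log2 fold change minus the all-gene median (bars: SE) of the enzymes in pathway order, helper proteins and the sterol acyltransferases, with the 10 genes starred and the strains in 3 colours. In Spt20-AID the lowest points are those of ERG28 (-1.91), ERG3 (-1.89), ERG5 (-1.65) and ERG6 (-1.60), while the starred ERG24 (-0.49), ERG26 (-0.41) and ERG2 (-0.51) lie within the range of the genes before squalene, from IDI1 (-0.94) to HMG2 (0.32).

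With the 10 genes included, 13 of 27 enzyme and helper genes were called lower and 2 higher in Spt20-AID (8.08% and 54.0% of all genes). In Med16/Spt20-AID 14 were called lower and 2 higher (10.3% and 46.2% of all genes). With TMM the counts were 25 lower and 1 higher (25.1% and 17.1% of all genes), and 22 lower and 1 higher (21.6% and 11.9% of all genes). In each of these strains 25 of the 27 lay below the all-gene median. In Med16/Taf13-AID all 27 fell, as did 98.2% of all genes, and 7 lay below its all-gene median.

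Of 6 regulators, 1 fell and 1 rose in Spt20-AID, against 8.08% of all genes lower and 54.0% higher. In Med16/Spt20-AID 1 fell and 2 rose, against 10.3% of all genes lower and 46.2% higher. With TMM 2 were lower and 1 higher in Spt20-AID (25.1% and 17.1% of all genes), and 3 lower and 1 higher in Med16/Spt20-AID (21.6% and 11.9%). The activator gene ECM22 rose in both strains with tagged Spt20 (0.94 ± 0.16 and 0.72 ± 0.15). The gene of its paralog UPC2 was not called in Spt20-AID (0.25) and was called in Med16/Spt20-AID (0.39), though not with TMM (0.10). The heme activator HAP1 fell in Spt20-AID (-0.58 ± 0.16) and was not called in Med16/Spt20-AID (-0.01). On the spike-in scale the difference of its 2 responses was not called, so they were not shown to differ. With TMM 1 of the 6 regulators was called higher in that difference, against 8.19% of all genes. ROX1, the repressor of hypoxic genes, was not called in Spt20-AID (0.25) and fell in Med16/Spt20-AID (-0.68 ± 0.15), and the difference of the responses was -0.93 (edgeR adjusted p = 0.0005). The list medians were 0.24 and 0.04. In Med16/Taf13-AID all 6 fell, as did 98.2% of all genes, with ECM22 lowest at -2.50.

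Of 7 genes for sterol esters and uptake, 5 rose and 2 fell in Spt20-AID, and 3 rose and 1 fell in Med16/Spt20-AID. The list medians were 0.47 and 0.28. Of all genes, 54.0% and 46.2% were called higher and 8.08% and 10.3% lower. With TMM 1 was called higher and 2 lower in Spt20-AID (17.1% and 25.1% of all genes), and 2 higher and 1 lower in Med16/Spt20-AID (11.9% and 21.6%). The 2 sterol acyltransferase genes moved apart. ARE2 went from 936.7, 974.4 and 705 normalized counts to 411.4, 367.9 and 538.6 in Spt20-AID, and from 1601, 1707 and 1713 to 534.5, 571.5 and 480.9 in Med16/Spt20-AID (log2 fold changes -0.99 ± 0.14 and -1.66 ± 0.14). ARE1 rose by 0.60 ± 0.19 and 1.01 ± 0.16, though the first was not called with TMM (0.24). ARE2 was cut further in the double degron strain (difference -0.67, edgeR adjusted p = 0.0295), but not with the replicate number as a block (adjusted p = 0.0686). The uptake transporter gene AUS1 rose in both (0.78 and 0.62). Its partner PDR11 (0.44), and the ester hydrolase genes TGL1 (0.54) and YEH2 (0.47) rose in Spt20-AID on the spike-in scale but were not called with TMM. YEH1 fell there (-0.39, edgeR adjusted p = 0.0427; 0.0565 with the block).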

How the data were processed

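nsRNA-seq libraries of 3 degron strains with 3-IAA or DMSO were analysed, 3 replicates each, grouped by the sample titles. The authors used STAR 2.6.1a with sacCer3 as the genome, and deposited raw counts per gene for both strands and for each strand. The sense counts were used. Reads that map to several places are not in them. The study used spike-in normalization in DESeq2, whose version is not given in the sources used here. Its S. pombe counts were not used here. Size factors were recovered by least squares from mean normalized counts of 1950 genes in the study's table. The median relative error was 7.02e-05% over 1396 genes with means of 100 or more (limit 1%), against 21.0% for counts of both strands.

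Counts of 5567 genes (10 or more sense reads on average) were fitted in edgeR 4.0.16 (R 4.3.3) with 6 groups. Its quasi-likelihood test was applied to each contrast with Benjamini-Hochberg adjustment over all of them, threshold 0.05. SE is the absolute log2 fold change over the square root of F, and intervals are 1.96 SE. Columns of the study's own fold changes and p-values were not used. The test was checked on simulated data for the Spt20-AID contrast and for the difference of Med16/Spt20-AID and Spt20-AID. The simulation had no global shift, no paired cultures and size factors without error, so it does not cover those features of the data.

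Each culture was split between 3-IAA and DMSO, so same-numbered libraries of a strain were taken as pairs, and the fit with the replicate number as a block is an alternative. Deviations from the group means correlated between same-numbered libraries at 0.0317 to 0.468, above 0.1 in 7 of 9 pairs, and 16 of 18 libraries correlated best with their own number.

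The other alternatives were TMM, median-of-ratios factors, counts of both strands, no filter or a minimum mean of 50 reads, DESeq2 1.42.0 (Wald test), leaving out each replicate, and fitting the compared libraries alone. The members and lists were chosen with earlier results of these data known. All 10 members and called list genes are named, with the 5 other genes of most like profile. Gene coordinates and upstream sequence come from RefSeq R64, the assembly of sacCer3, whose annotation holds 6008 of the 6692 identifiers. Sense reads per library were 874975 to 6189719. Replicates are biological by the study's methods.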

Additional observations from a re-analysis of the deposited data

Results flagged for a closer look

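The response to 3-IAA differed between Med16/Taf13-AID and Med16/Spt20-AID for 8 of the 10 genes by the interaction test in edgeR on the spike-in scale. All 8 were called lower, as were 93.9% of all genes, so the count does not set the 10 genes apart. The differences of log2 fold change were -2.09 for ERG26, -1.68 for ERG24, -1.38 for ERG2, -1.17 for ERG27, -1.11 for ERG1, -0.89 for ERG6, -0.70 for ERG11 and -0.45 for ERG25, against an all-gene median of -1.99. ERG26 alone lay below that median. With TMM 7 of these 8 genes turned in sign, and the call of ERG25 was lost with DESeq2 (adjusted p = 0.0553).

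Reads on the antisense strand, which the comparisons above did not use, were above every DMSO library in every 3-IAA library for 7 genes in at least 1 of the strains with tagged Spt20. Among genes with 30 or more antisense reads in the 6 libraries of a strain, these were 2 of 4 of the ERG genes in Spt20-AID, against 31.2% of all such genes, and 5 of 8 in Med16/Spt20-AID, against 32.6%. The difference was not tested. The minimum counts both treatments together, so a gene can pass it through its 3-IAA reads, as ERG6 did in Med16/Spt20-AID (26 reads against 4 with DMSO). These shares therefore do not set the ERG genes apart. ERG24 had the most, with a mean of 65.5 normalized counts in Spt20-AID with 3-IAA (69.2, 68.1 and 59.2) against 57.9, 49.8 and 42.8 with DMSO. Its antisense share of reads was 14.3% to 29.4% over the 6 groups. In Med16/Spt20-AID with 3-IAA the means were 20.2 for ERG25, 9.48 for ERG11, 11.03 for ERG26, 8.21 for ERG6 and 7.22 for ERG3. ERG2 had 6.81 in Spt20-AID with 3-IAA. These are few reads, for example 64 in all for ERG25 with 3-IAA in Med16/Spt20-AID against 25 with DMSO.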

How the results depend on the processing

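The number of falls was 7 in both strains with tagged Spt20 under each alternative that used the spike-in factors, and leaving out any 1 library left 7 genes called lower in each (range 7 to 7). In Med16/Taf13-AID the range was 10 to 10. For the difference of Med16/Taf13-AID and Med16/Spt20-AID it was 7 to 8 lower, since ERG25 lost its call in 7 of those fits and with DESeq2. For the DMSO comparison it was 6 to 8 higher and 0 to 1 lower, where ERG3 was called lower without Spt20-AID DMSO replicate 3 (-0.35). Adding the replicate block, 7, 7 and 10 genes were called lower in the 3 strains, as without it. In the DMSO comparison, where the number pairs nothing across strains, 8 were called higher with it, as ERG6 was added (0.25, adjusted p = 0.0285). It changed no other call of the 10 genes.

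Scaling on the genes themselves changed the calls that rest on the global shift. With TMM and with median-of-ratios factors, respectively, the genes called in Med16/Taf13-AID were 1 and 1 lower and 1 and 2 higher. For Med16/Spt20-AID minus Spt20-AID they were 1 and 1 higher. For Med16/Taf13-AID minus Med16/Spt20-AID they were 0 and 0 lower and 8 and 8 higher. For the DMSO comparison they were 9 and 9 lower and 0 and 0 higher.

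Signs that turned are given as TMM and then median-of-ratios log2 values. In Med16/Spt20-AID ERG24 was at -0.26 and -0.235. In Med16/Taf13-AID ERG5 was at 0.34 and 0.365, ERG25 at 0.24 and 0.26, ERG2 at 0.19 and 0.215, ERG11 at 0.12 and 0.14, ERG3 at 0.060 and 0.082, ERG24 at 0.014 and 0.036, and ERG27 at 0.0043 with median-of-ratios only. For Med16/Taf13-AID minus Med16/Spt20-AID, ERG25 was at 1.50 and 1.50, ERG11 at 1.26 and 1.25, ERG6 at 1.06 and 1.05, ERG1 at 0.83 and 0.83, ERG27 at 0.77 and 0.77, ERG2 at 0.57 and 0.57, and ERG24 at 0.27 and 0.27. In the DMSO comparison ERG25 was at -0.84 and -0.83, ERG6 at -0.76 and -0.75, ERG11 at -0.65 and -0.64, ERG1 at -0.49 and -0.48, ERG2 at -0.49 and -0.48, ERG27 at -0.44 and -0.43, ERG26 at -0.41 and -0.40, ERG24 at -0.31 and -0.30, and ERG5 at -0.15 and -0.15.

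Over all genes, TMM called 1395 lower and 951 higher in Spt20-AID (450 and 3004 with the spike-in), 1200 and 663 in Med16/Spt20-AID (576 and 2573), 810 and 833 in Med16/Taf13-AID (5467 and 4), 403 and 456 for Med16/Spt20-AID minus Spt20-AID (147 and 34), 777 and 1128 for Med16/Taf13-AID minus Med16/Spt20-AID (5225 and 25), and 1519 and 1461 in the DMSO comparison (19 and 5250). Median-of-ratios gave 1335 and 1116, 1144 and 839, 728 and 916, 393 and 466, 787 and 1123, and 1486 and 1501. Leaving out 1 library moved the higher calls of Med16/Spt20-AID to 1110 to 2858 and those of Med16/Spt20-AID minus Spt20-AID to 19 to 121. It moved those of Med16/Taf13-AID to 2 to 6 and of Med16/Taf13-AID minus Med16/Spt20-AID to 21 to 44, and the lower calls of the DMSO comparison to 12 to 31. DESeq2 called 2 higher in Med16/Taf13-AID. Spike-in calls rest on size factors whose error all genes of a library share, and the lowest depth (Med16/Taf13-AID with 3-IAA) gave the widest intervals.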
